A study of Mus musculus with 24 samples.

Results

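The C-terminal fragment of p65/RelA, p363-549, was compared with the empty plasmid in the mouse leukaemia line DA1-3B. The 4 arrays whose transfection label was p65/RelA-p363-549 were set against the 4 arrays labelled VOID, out of 24 arrays in the series. All of the cells carried Bcr-ABL, came from the C3H eOuJ strain and were grown in the same medium. The VOID cells were transfected too, with a plasmid that held no p65 sequence. The other 16 arrays came from 4 further groups of 4: full-length p65 (WT), the mutant D361E described as non-cleavable, the N-terminal fragment p1-361, and both fragments together. The fragment's name and the description of the treatment differ by 1 residue in where it begins, and the time between transfection and RNA extraction is not given in the sources used here. Separate cultures within a group of 4 are not stated, and the spread that the p-values rest on may be technical.

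p65 is 1 of the DNA-binding proteins that make up NF-kB, a transcription factor held in the cytoplasm by IkB proteins, and it enters the nucleus when they are degraded. Its N-terminal part, the Rel homology region, binds DNA, pairs with other NF-kB subunits and is bound by IkB, and its C-terminal part carries the transactivation domains that recruit the transcription machinery. p363-549 therefore holds transactivation sequence without the DNA-binding region. In blood cells NF-kB is best known for driving cytokine, chemokine and survival genes, and it also induces inhibitors of itself, such as IkB alpha and A20.

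Expression is given as the log2 of the processed spot signal minus the 75th percentile of that array, so a level of 0 equals that percentile, and a change is the p363-549 mean minus the VOID mean on this scale. Genes were called at a Benjamini-Hochberg adjusted p under 0.05 in limma over 14991 tested genes. On the 8 arrays between 49.6% and 55.5% of the spots that were not controls were well above background. The cells were checked against marker lists. On all 4 VOID arrays 16 of 25 mast cell and basophil markers were above background, as were 20 of 26 erythroid and globin genes, 8 of 18 monocyte and macrophage markers, 5 of 20 B cell markers and 1 of 10 fibroblast markers.

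One p363-549 array stood apart from the other 3. Each array was compared with group means from the other sets of title numbers, described below, over the 200 genes that best separated the groups there. Those genes thus differed between replicates, and the p363-549 mean used for replicates 1, 2 and 3 included replicate 4. Replicates 1, 2 and 3 correlated with the mean of their own group at r = 0.66, 0.62 and 0.66. Replicate 4, whose title number is 23, gave r = -0.50 with its own group and r = 0.97 with the group that received both fragments. These correlations run across genes, which are not independent replicates. Replicate 4 of p1-361 had its highest correlation, r = 0.94, with p363-549, and replicate 4 of both fragments had its highest, r = 0.90, with p1-361. The groups were kept as labelled, and the named changes are given with all 4 arrays and without p363-549 replicate 4.

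The level of Rela comes from 1 probe near the end of its transcript, on chromosome 19, bases 5648070 to 5648129 of mm9. The last 30 bases of the probe, at chr19:5648100-5648129 on the plus strand, are shown because they hold the letters of a polyadenylation signal, in capitals.
Rela: gctctgaactAATAAAtgtcttatcacgct
Whether the probe lies in the coding sequence, and whether the plasmids hold this stretch, is not given in the sources used here, and its value was not used as a check of the labels. Rela stood at 4.33, 4.24, 4.43 and 4.50 on the VOID arrays and at 4.79, 4.86, 4.80 and 4.99 on the p363-549 arrays. The groups did not overlap, and Rela rose by 0.49 ± 0.10 (SE, n = 4 arrays per group; adjusted p = 0.0174). The rise missed the threshold without p363-549 replicate 4 (0.45, adjusted p = 0.0664), p363-549 replicate 2 (adjusted p = 0.0532), VOID replicate 1 (0.0593) or VOID replicate 2 (0.0883). With the sets of title numbers described below as a block it passed without replicate 4 too (adjusted p = 0.00861).

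With all arrays, p363-549 changed 87 of the 14991 genes against VOID (0.58%), 27 of which rose (0.18%) and 60 of which fell (0.4%). Without replicate 4 there were 69 genes (0.46%), of which 21 rose (0.14%) and 48 fell (0.32%). The sets shared 55 genes, all with the same direction, and 32 calls were lost and 14 gained without that array. The median change over all tested genes was 0.03 with replicate 4 and 0.02 without it, values that the scaling to each array's own percentile holds near 0. The 4 arrays of one group lay wholly above or below the 4 of the other for 496 genes (3.31%), and for 1064 genes (7.1%) without replicate 4. Groups this small can lie apart with no difference between them, and more often with 1 array fewer. These shares are therefore not comparable with each other and were not tested. All 87 called genes were among the 496, and so had the same direction in each of the 3 slides that held both groups. The count was 56 without p363-549 replicate 3, 47 without VOID replicate 2, 50 without VOID replicate 4, 21 when only these 8 arrays were fitted (43 in that fit without p363-549 replicate 4) and 264 (135 higher, 129 lower) with the 4 consecutive sets of title numbers, each holding 1 array of every group, as a block. With that block all 51 called genes named below or on the lists passed, and 47 of them did with the block and without p363-549 replicate 4, the exceptions being 9130008F23Rik, Col11a1, Cracd and Fcgr4. In the fit of only these 8 arrays 16 of the 51 passed: Cd200r2, its unnamed neighbour, Ccdc80, C5ar1, Gpr183, Itih3, Tfpi, F5, Dab2ip, Slc44a3, Itga7, Cela3a, Ccl3, Casp4, Fam20a and 5830415G21Rik. When replicate 4 was also left out of that fit, 26 of the 51 passed, F13a1, Fcer1a, Fes, Hbb-y, Podnl1 and Lyz1 among them, and Casp4 did not (adjusted p = 0.0580). The losses given below for single genes are from the fit of 24 arrays with no block. Of the 51 called genes named below or on the lists, 26 passed without any 1 of the 8 arrays. Only 10 of the 51 passed after normexp background correction, which adds an offset of 50 to every signal: Cd200r2, its unnamed neighbour, Ccdc80, C5ar2, Il4ra, F13a1, Fcer1a, Fes, Casp4 and A030001D16Rik.

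**Figure D1:**
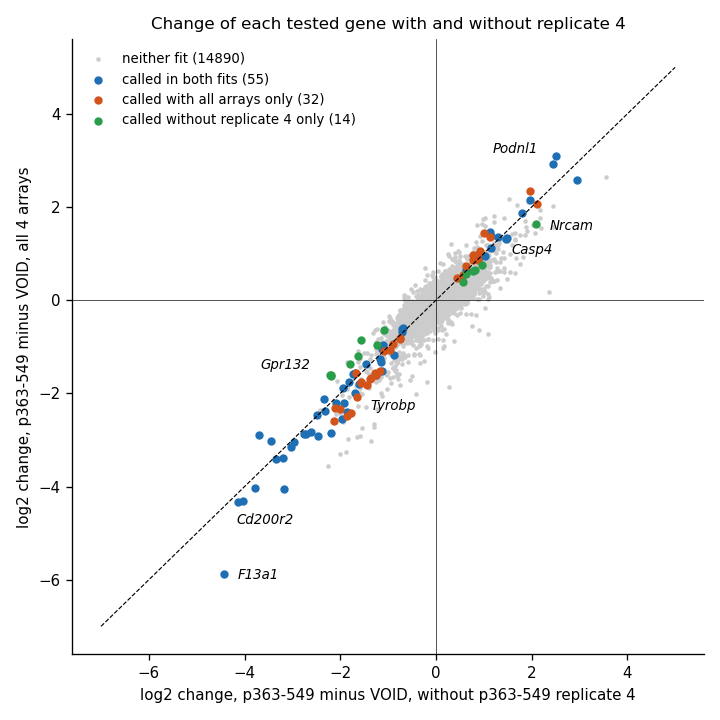
Change of each tested gene, p363-549 minus VOID, without p363-549 replicate 4 (horizontal, log2) and with all 4 arrays (vertical, log2); the dashed line marks equal values, and colours mark the genes called in both fits (55), with all arrays only (32) or without replicate 4 only (14). F13a1 lies below the line because replicate 4 was lower than the other 3 arrays, while Nrcam and Gpr132 lie nearer to 0 with that array than without it.

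A pair of deep falls lay next to each other on chromosome 16, in the cluster of CD200 receptor genes. These encode related cell surface receptors of myeloid and mast cells. Cd200r2 fell 19.8-fold and passed in every one of 23 alternative settings. An array probe with no gene name fell by a like amount and lies 1.1 kb from the Cd200r2 probe. The first 30 bases of both 60-base probes are shown, since they are what was measured at this place, from chr16:44915823-44915852 and chr16:44914728-44914757 (mm9, plus strand).
Cd200r2: tgagtaggtaggaagcatcctcatagatgc
A_55_P2187211: gggattattcttcttaaagtgggatttgct
Cd200r2 read 2.31, 1.93, 2.64 and 2.18 on the VOID arrays and -1.61, -1.91, -1.77 and -2.88 on the p363-549 arrays. Its highest p363-549 array was thus far below its lowest VOID array, and replicate 4 was the lowest of all. Cd200r2 fell by 4.31 ± 0.25 (adjusted p = 8.0e-10), and by 4.03 without replicate 4 (adjusted p = 5.9e-10). Within the 3 shared slides the differences were -4.25, -4.81 and -4.08. The unnamed probe read -0.84, -0.01, 0.08 and -0.19 with VOID and -4.50, -3.66, -3.90 and -4.98 with the fragment. It fell by 4.02 ± 0.28 (adjusted p = 2.1e-08; 3.78 without replicate 4, adjusted p = 1.0e-07), and the labels and the annotation used here do not say which transcript it reads.

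The fall was uneven along the cluster. Cd200r4 fell by 1.69 ± 0.36 (adjusted p = 0.0270), and its call ended without p363-549 replicate 1 (adjusted p = 0.0791) or 4 (0.117), or without VOID replicate 2 (0.116), 3 (0.0907) or 4 (0.0929). Cd200r3 was 2.74 ± 0.93 lower (adjusted p = 0.341) and Cd200r1 0.50 ± 0.29 lower (adjusted p = 0.928), neither past the test, and without replicate 4 they were 1.55 and 0.25 lower. Of the 4 measured members of the family, 2 were called lower with all arrays and 1, Cd200r2, without replicate 4, and the list's median change was -2.22. Ccdc80, a secreted matrix protein, lies 212 kb from the Cd200r2 probe. Ccdc80 read 0.34, 0.86, 0.95 and 1.00 in VOID and -2.21, -1.61, -1.96 and -2.58 in p363-549, a fall of 2.88 ± 0.24 (adjusted p = 2.1e-07; 2.72 without replicate 4) that passed in all 23 settings. A second, dimmer Ccdc80 probe was above background on all 4 VOID arrays and on 0 fragment arrays. Atg3, at 268 kb, was 0.31 ± 0.16 lower and did not pass (adjusted p = 0.795). Of 12 tested genes within 500 kb of Cd200r2, 4 were called, against 0.58% of all tested genes. The window was centred on a called gene, and the 4 include Cd200r2 itself and the unnamed probe, which may read the same transcript. The CD200 receptor genes are similar in sequence, so a probe may read more than 1 of them.

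**Figure D2:**
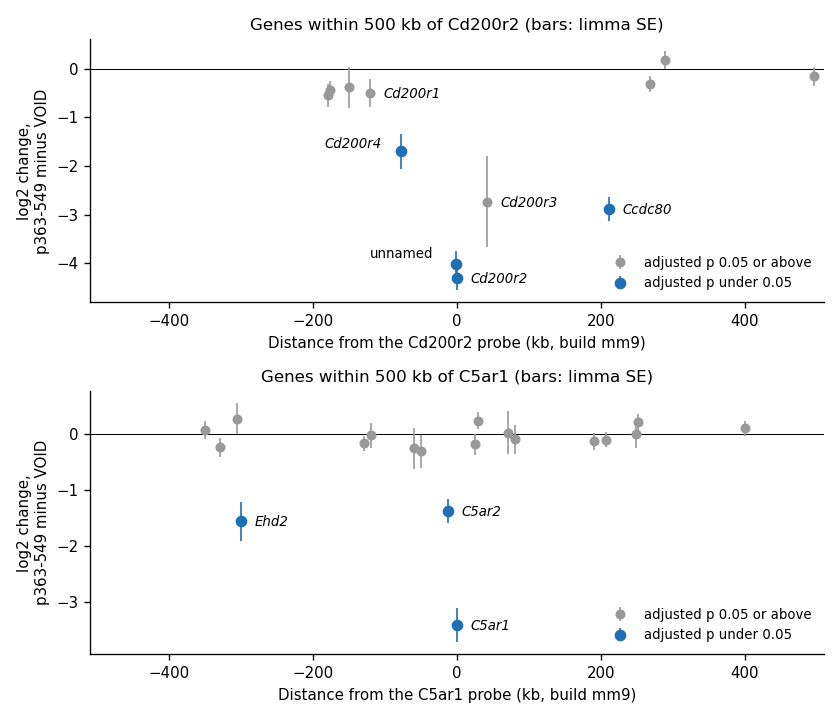
Change (log2, p363-549 minus VOID, all 4 arrays, bars limma SE) of every tested gene within 500 kb of the Cd200r2 probe (top) and the C5ar1 probe (bottom), against the distance in kb. The called genes, in blue, fell by 1.37 to 4.31, and most of their neighbours lay near 0; the point of C5ar1 is a fitted change of a gene below background on the fragment arrays.

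Both receptors for the complement fragment C5a fell, and their genes adjoin on chromosome 7. C5ar1, the receptor that signals chemotaxis, read -3.47, -3.33, -3.53 and -3.24 on the VOID arrays and -6.96, -6.54, -6.74 and -6.99 on the p363-549 arrays. It was above background on all 4 VOID arrays and on none of the fragment arrays, so it was at least 2.56-fold lower (adjusted p = 5.7e-07; measured means -3.39 and -6.81), and at least 2.40-fold lower without replicate 4 (adjusted p = 6.9e-06). Its probe covers chr7:16832243-16832302 (mm9, minus strand). C5ar2, the second C5a receptor, stayed above background and read 0.87, -0.11, 0.12 and 0.27 in VOID against -0.96, -1.57, -0.97 and -0.83 in p363-549. C5ar2 fell by 1.37 ± 0.21 (adjusted p = 0.00189) and by 1.45 without replicate 4 (adjusted p = 0.00339). Among 19 tested genes within 500 kb of C5ar1 the third called one was Ehd2, an endocytic ATPase, which fell by 1.56 ± 0.35 (adjusted p = 0.0433; 0.0649 without replicate 4) and was picked out after its values were seen.

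The third chemoattractant receptor that fell was Gpr183, which guides leukocytes along oxysterol gradients. It was at least 2.80-fold lower (adjusted p = 0.00417; 2.63-fold without replicate 4, adjusted p = 0.0179), with no fragment array above background. Among all tested genes 0.4% fell with all arrays and 0.32% without replicate 4, and the gene lists were drawn up with earlier results of these data known. Of 13 tested complement and chemoattractant receptors 3 fell, with or without replicate 4, none rose, and the median change was -0.68 against 0.03 over all genes. The 10 others included C3ar1, at -2.26 (adjusted p = 0.214), and Cxcr4, at -0.69 (adjusted p = 0.248).

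**Figure D3:**
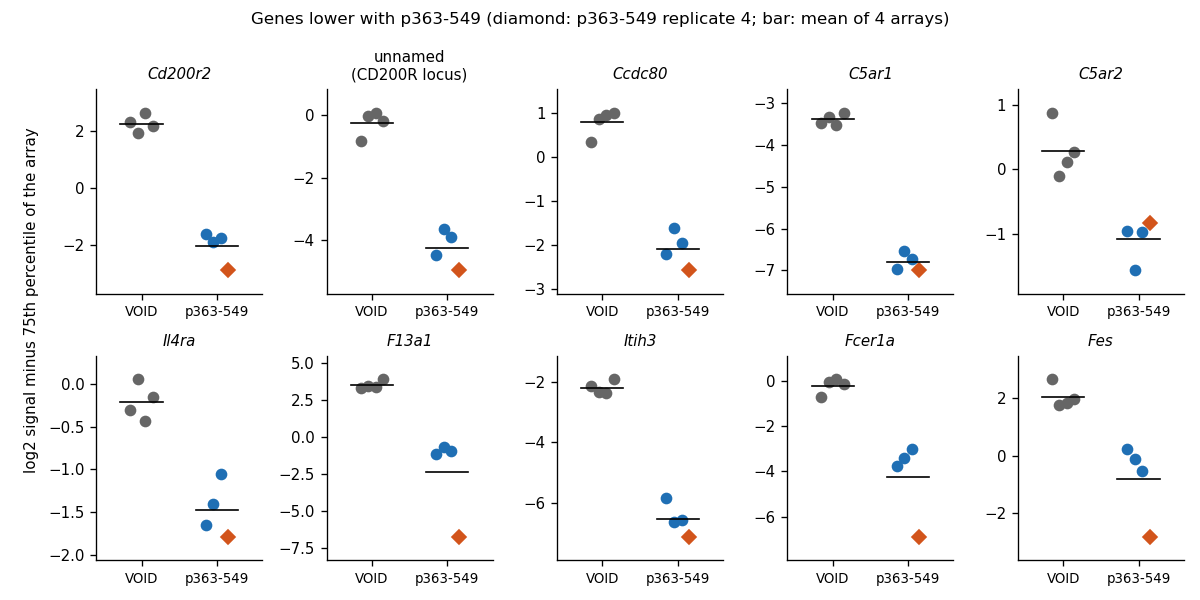
Level on each array (log2 signal minus the array's 75th percentile) of 10 genes that fell, for the 4 VOID arrays (grey) and the 4 p363-549 arrays (blue; orange diamond, replicate 4), with group means as bars. In all 10 genes the groups were apart, and in F13a1, Fcer1a and Fes replicate 4 was well below the other 3 fragment arrays.

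F13a1 had the largest measured change of all called genes. It encodes the A subunit of clotting factor XIII, which crosslinks fibrin and is made by platelet precursors and macrophages. F13a1 read 3.26, 3.43, 3.34 and 3.88 on the VOID arrays and -1.17, -0.70, -0.98 and -6.76 on the p363-549 arrays. Replicate 4 was thus far below the other 3, which were themselves more than 3 units below every VOID array. F13a1 fell by 5.88 ± 1.03 (adjusted p = 0.0060) with all arrays and by 4.43 without replicate 4 (adjusted p = 0.0063). A second probe was above background on all 4 VOID arrays and on 0 fragment arrays.

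Itih3, a heavy chain that joins inter-alpha-trypsin inhibitor to hyaluronan, was read by a probe at chr14:31721835-31721894 (mm9, minus strand). It read -2.14, -2.35, -2.37 and -1.92 in VOID and -5.84, -6.62, -6.55 and -7.11 in p363-549, where no array was above background. Itih3 was at least 5.87-fold lower (adjusted p = 7.7e-06, measured means -2.20 and -6.53), and at least 5.51-fold lower without replicate 4 (adjusted p = 5.4e-05). Of 27 tested clotting and platelet genes 5 fell, with or without replicate 4: F13a1, Itih3, Tfpi, Vwf and F5. Over all tested genes 0.4% fell with all arrays and 0.32% without replicate 4. The list was drawn up with earlier results of these data known and takes in inter-alpha-trypsin inhibitor chains such as Itih3, so its count is no independent evidence. Tfpi, which inhibits the start of the clotting cascade, fell by 3.02 ± 0.39 (adjusted p = 0.000206), was at least 5.10-fold lower without replicate 4, where no fragment array was above background, and of its other probes 1 was above background on 0 fragment arrays and 1 was 0.77 lower. F5, clotting factor V, was at least 1.58-fold lower (adjusted p = 0.000686; 1.48-fold without replicate 4), and Vwf, the carrier of factor VIII, fell by 2.39 ± 0.42 (adjusted p = 0.00599) and by 1.85 without replicate 4 (adjusted p = 0.0107). Tfpi and Vwf were above background on only 1 fragment array each. The list's median was 0.13, and 16 of the 27 had a change above 0. The platelet chemokines Pf4 and Ppbp were 1.76 and 1.74 higher without passing (adjusted p = 0.397 and 0.84).

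Fcer1a, the chain of the high-affinity IgE receptor that binds IgE, fell by 4.05 ± 0.66 (adjusted p = 0.00278). It read -0.71, -0.05, 0.08 and -0.14 in VOID and -3.74, -3.39, -3.02 and -6.88 in p363-549. As with F13a1, replicate 4 was the lowest by a wide margin, and without it Fcer1a fell by 3.18 (adjusted p = 0.00362). Fcer1a was the only 1 of 16 tested mast cell and basophil markers that passed, with or without replicate 4. Of all tested genes 0.58% passed, and 0.46% without that array. The median of the list was -0.95 with replicate 4 and -0.54 without it, and 15 of the 16 had a change below 0. The mast cell proteases Mcpt8 and Cma1 were 2.35 and 3.29 lower (adjusted p = 0.0600 and 0.214), and Cpa3 was 2.72 lower with all arrays and 1.28 lower without replicate 4. The summed level of the 25 listed markers ran from 7.47 to 8.04 on the VOID arrays, from 7.32 to 7.78 on the other 3 fragment arrays and was 6.80 on replicate 4, and its part in the Fcer1a result was not tested. In RNA from whole cultures, fewer cells of a type and less RNA per cell cannot be told apart. The summed level of 9 eosinophil markers was 1.16 to 2.58 in VOID and -0.16 to 1.01 in p363-549, so the groups were narrowly apart. It was picked out after the values were seen, since the sums of all other cell type lists examined overlapped. Of the 9 markers 4 were above background on 0 VOID arrays, and 0 of the 4 tested members passed in limma.

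Several signalling genes fell as well. Fes, a tyrosine kinase of myeloid cells, read 2.65, 1.74, 1.82 and 1.98 in VOID and 0.23, -0.13, -0.53 and -2.81 in p363-549. It fell by 2.86 ± 0.51 (adjusted p = 0.00683) and by 2.19 without replicate 4 (adjusted p = 0.0126), with a second probe 2.87 lower. Furin, a protease that activates secreted precursors and whose gene neighbours Fes on chromosome 7, fell by 1.59 ± 0.37 (adjusted p = 0.0494; 0.183 without replicate 4), and was picked out after its values were seen. Dab2ip, a Ras GTPase-activating protein, was at least 1.83-fold lower (adjusted p = 7.9e-08; 1.72-fold without replicate 4). Il4ra, the receptor chain for interleukin 4, fell by 1.27 ± 0.19 (adjusted p = 0.00099) and by 1.16 without replicate 4, but a second, dimmer probe was only 0.20 lower. Il27ra, a chain of the interleukin 27 receptor, fell by 0.69 ± 0.14 (adjusted p = 0.0159; 0.70 without replicate 4, adjusted p = 0.0316). The Il27ra call ended without p363-549 replicate 1 (adjusted p = 0.0528) or 3 (0.0530), or without VOID replicate 2 (0.0869) or 4 (0.0525). Il4ra and Il27ra were the 2 of 26 tested cytokine receptors that passed, against 0.58% of all tested genes, and the list's median change was -0.06.

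Of the 60 falls, 15 were above background on all VOID arrays and on no fragment array, among them C5ar1, Gpr183, Itih3, F5 and Dab2ip above and Ccl3 and Ctss below. Slc44a3, a choline transporter-like protein, was at least 2.24-fold lower (adjusted p = 2.8e-08; 2.11-fold without replicate 4), and Itga7, a laminin-binding integrin chain, at least 2.47-fold lower (adjusted p = 5.8e-05; 2.32-fold without it). Cela3a, a pancreatic elastase, was at least 2.12-fold lower (adjusted p = 0.000582; 2.00-fold without replicate 4). Ifitm6, an interferon-induced membrane protein, was at least 3.73-fold lower (adjusted p = 0.0330). The other 4, Asb2, Asap2, Lrrn4cl and Serpinb9e, were picked out after their values were seen, and were at least 1.75-fold, 2.78-fold, 1.57-fold and 3.00-fold lower. The calls of Slc44a3, Itga7 and Cela3a held without each of the 8 arrays. The Ifitm6 call did not: its adjusted p was 0.0888 and 0.135 without p363-549 replicates 3 and 4, and 0.0698, 0.101, 0.0586 and 0.135 without VOID replicates 1 to 4. The RNA 9330199F22Rik fell by 2.90 ± 0.57 (adjusted p = 0.0159), where replicate 4, at -3.18, lay nearer to the VOID arrays (-2.91 to -2.44) than the other 3 fragment arrays did (-6.66 to -5.87). The call of 9330199F22Rik ended without p363-549 replicate 1, 2 or 3 (adjusted p = 0.0509, 0.0752 and 0.0727) or without VOID replicate 1 or 4 (0.0591 and 0.0594), and was strongest without p363-549 replicate 4, where it was at least 3.92-fold lower (adjusted p = 4.8e-05).

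Canonical NF-kB targets moved in both directions, and over all tested genes 0.18% rose and 0.4% fell. Of 35 tested targets, Ebi3 and Tnip1 rose, Ccl3 and Ccl5 fell, and 25 had a change above 0. The median of the targets was 0.27 with replicate 4 and 0.17 without it, against 0.03 over all genes. Without replicate 4, in the fit with no block, the fall of Ccl3 was the only call among these targets. Ccl3, a chemokine that draws monocytes, read -3.14, -2.75, -2.21 and -2.96 in VOID and -5.41, -5.22, -5.04 and -7.06 in p363-549. None of these fragment arrays was above background, and Ccl3 was at least 3.95-fold lower (adjusted p = 0.00107; 3.71-fold without replicate 4, adjusted p = 0.00362). Ccl5, a chemokine for T cells and monocytes, fell by 1.53 ± 0.35 (adjusted p = 0.0470). That call ended without p363-549 replicate 2 (adjusted p = 0.0752), 3 (0.0597) or 4 (0.165) or VOID replicate 2 (0.126), 3 (0.147) or 4 (0.159), and with the block of title number sets it held without replicate 4 (adjusted p = 0.0357). Of 10 tested chemokines 2 fell and none rose, with a median of -0.59, and Ccl4 and Ccl6 were 1.91 and 1.45 lower without passing (adjusted p = 0.466 and 0.0794).

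Ebi3, the shared subunit of interleukins 27 and 35, read 0.82, 1.62, 2.06 and 1.82 in VOID and 2.20, 2.78, 3.17 and 3.62 in p363-549. The lowest fragment array was only just above the highest VOID array, and Ebi3 rose by 1.36 ± 0.30 (adjusted p = 0.0414). Its call ended without p363-549 replicate 2 (adjusted p = 0.0763), 3 (0.121) or 4 (0.157) or VOID replicate 1 (0.181), 2 (0.108) or 4 (0.0719). Tnip1, a partner of the ubiquitin editor A20 that restrains NF-kB signalling, rose by 0.74 ± 0.15 (adjusted p = 0.0182), with a second probe 0.73 higher. The Tnip1 call ended without p363-549 replicate 3 (adjusted p = 0.0715) or 4 (0.0816) or VOID replicate 1 (0.0542), 2 (0.0948) or 4 (0.0704). With the block of title number sets Ebi3 and Tnip1 both passed without replicate 4 (adjusted p = 0.00965 and 0.0374). In the list of NF-kB and IkB family genes, 2 of 23 rose, Rela and Tnip1, against 0.18% of all tested genes. Of the 23, 16 had a change above 0, with 0 calls without replicate 4 and no block. Nfkb1 was 0.85 higher (adjusted p = 0.0642), Nfkbie 0.75 higher (adjusted p = 0.136) and Nfkbia 0.42 higher (adjusted p = 0.999).

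Casp4 rose in nearly every setting tried. It encodes the caspase that senses bacterial lipopolysaccharide in the cytosol and triggers inflammatory cell death. Casp4 read 2.22, 2.01, 2.44 and 1.98 on the VOID arrays and 3.43, 3.16, 3.79 and 3.66 on the fragment arrays. It rose by 1.35 ± 0.16 (adjusted p = 5.8e-05), and by 1.30 without replicate 4 (adjusted p = 0.00034), with a second probe 1.26 higher. It passed without each of the 8 arrays and missed the threshold only in a fit of these arrays without replicate 4. None of the other 12 tested caspase and inflammasome genes passed, Casp1 at 0.13 and Gsdmd at 0.13 among them.

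Fam20a, a pseudokinase that assists the secretory pathway kinase Fam20c, read -4.71, -4.35, -3.81 and -4.53 in VOID and -1.67, -1.32, -1.21 and -2.88 in p363-549. Here replicate 4 was the lowest of the fragment arrays, and the rise was 2.58 ± 0.36 with it (adjusted p = 0.000426) and 2.95 without it (adjusted p = 3.1e-05). The RNA 5830415G21Rik was above background on 0 VOID arrays and all 4 fragment arrays, and was at least 3.97-fold higher (adjusted p = 8.4e-06; 3.53-fold without replicate 4). Podnl1, a small leucine-rich matrix protein, rose 8.57-fold (adjusted p = 0.0125), the largest measured rise. It was above background on only 2 of the 4 VOID arrays. Its fragment arrays read -1.81, -2.24, -2.09 and 0.32 and its VOID arrays -3.99, -4.25, -5.00 and -4.98. Without replicate 4 Podnl1 rose by 2.51 (adjusted p = 0.0436), and without VOID replicate 4 it missed the threshold (adjusted p = 0.0525). Mc1r, the melanocortin receptor of pigment cells, rose by 1.38 ± 0.24 (adjusted p = 0.00616) and by 1.15 without replicate 4 (adjusted p = 0.0219). The RNA A030001D16Rik rose by 1.46 ± 0.27 (adjusted p = 0.00805) and by 1.13 without it (adjusted p = 0.0179). In the fit of only these 8 arrays neither passed (adjusted p = 0.178 and 0.193), nor did they without replicate 4 there (0.163 and 0.0616).

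Pairs of neighbouring, similar genes rose together. The carboxylesterases Ces2b and Ces2c, which hydrolyse esters and lipids, lie 15.8 kb apart on chromosome 8. Ces2b read -6.84, -6.27, -5.51 and -5.08 in VOID, none above background, and -4.36, -3.37, -2.66 and -1.63 in p363-549, 3 of them above it. Its rise was at least 3.80-fold (adjusted p = 0.00485), and at least 2.77-fold without replicate 4 (adjusted p = 0.0187). Ces2c rose by 2.35 ± 0.49 (adjusted p = 0.0237), with 1 other probe 2.42 higher and another above background on all 4 fragment arrays and 0 VOID arrays, and its call ended without p363-549 replicate 3 (adjusted p = 0.0734) or 4 (0.107) or VOID replicate 1 (0.118), 2 (0.0895) or 3 (0.0501). The lysozymes Lyz1 and Lyz2, enzymes that degrade bacterial walls, lie 5.7 kb apart on chromosome 10. Lyz1 rose by 1.32 ± 0.25 (adjusted p = 0.0121), by 1.47 without replicate 4 (adjusted p = 0.00793), and missed the threshold without p363-549 replicate 3 (0.0566) or VOID replicate 2 (0.0555). Lyz2 was at least 2.40-fold higher (adjusted p = 0.0137; 0.0436 without replicate 4) and missed it without p363-549 replicate 3 (0.0558) or VOID replicate 1 (0.0593). With the slide as a fixed block neither lysozyme passed. In both pairs a probe may read the sister gene as well. Of all tested genes 0.18% rose and 0.4% fell. The 13 tested monocyte and macrophage markers had the 2 lysozyme rises, 1 fall and a median of 0.15, and their summed level overlapped between the groups (3.56 to 4.10 in VOID, 3.23 to 4.22 in p363-549). The fall was that of Ctss, the lysosomal protease cathepsin S, which was at least 3.39-fold lower (adjusted p = 0.0149) and missed the threshold without p363-549 replicate 4 (0.0649) or VOID replicate 2 (0.0559), 3 (0.0586) or 4 (0.0563).

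**Figure D4:**
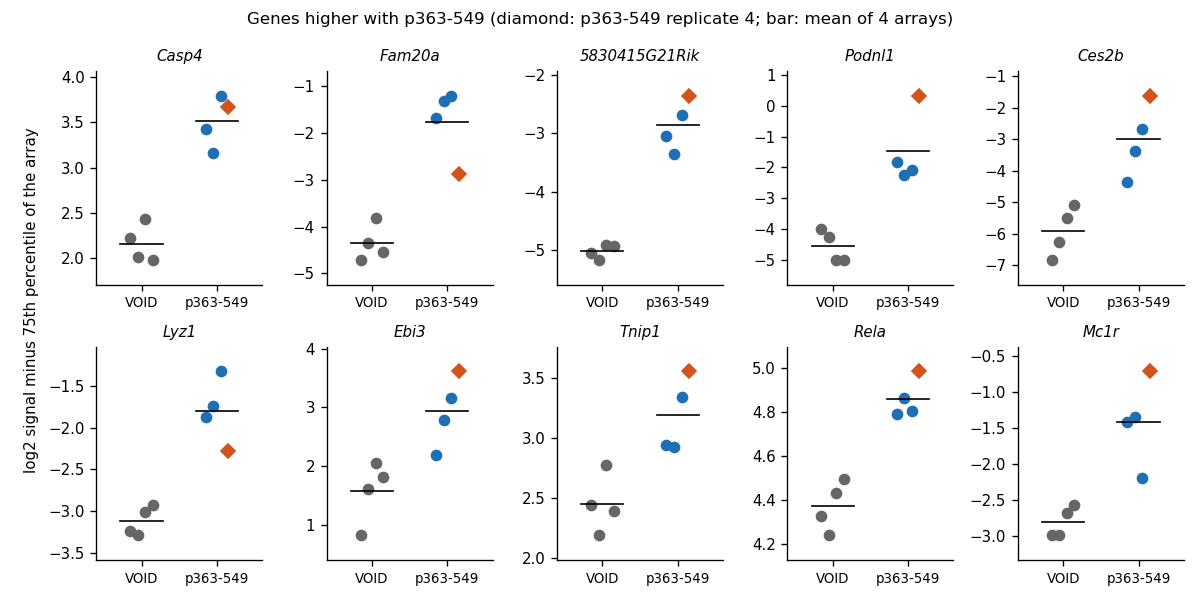
Level on each array (log2 signal minus the array's 75th percentile) of 10 genes that rose, for the 4 VOID arrays (grey) and the 4 p363-549 arrays (blue; orange diamond, replicate 4), with group means as bars. In all 10 genes the groups were apart; replicate 4 was the highest fragment array for 5830415G21Rik, Podnl1, Ces2b, Ebi3, Tnip1, Rela and Mc1r and the lowest for Fam20a and Lyz1.

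Other named genes rested on most of the arrays at once, and with no block their calls ended without p363-549 replicate 4 except that of Igsf5. Igsf5, a junction protein, rose by 1.33 ± 0.28 (adjusted p = 0.0242) and by 1.49 without replicate 4 (adjusted p = 0.0187), but its call ended without any 1 of p363-549 replicates 1, 2 and 3 and VOID replicates 1, 2 and 4 (adjusted p from 0.0704 to 0.108). St8sia4, which builds polysialic acid, was above background on 0 VOID arrays and at least 2.48-fold higher (adjusted p = 0.0482; 0.105 without replicate 4), and passed only when VOID replicate 3 was the array left out. The actin-binding protein Nexn rose by 1.06 (adjusted p = 0.0311; 0.132 without replicate 4), the collagen chain Col11a1 by 0.99 (0.0463; 0.157) and the RNA 9130008F23Rik by 1.45 (0.0479; 0.111). The integrin chain Itgb7 fell by 0.81 (adjusted p = 0.0425; 0.138 without replicate 4), the helicase Tdrd9 by 2.41 (0.0244; 0.0702) and Cracd, a regulator of actin capping, by 2.48 (0.0482; 0.169). For these 6 genes leaving out any of 4 to 6 other arrays also ended the call.

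Promoter sequences of RefSeq (GRCm38.p6, from 250 bases before to 50 after the start site) were searched for the NF-kB consensus known as the kB site, on both strands, where overlapping matches were merged. At least 1 promoter was found for 61 of the 87 called genes. A match was found for 4 of 19 genes that rose (21.1%), 3 of 42 that fell (7.14%) and 789 of 9653 tested genes (8.17%), and in 1907 of all 32851 promoters of this length (5.8%). The 4 genes that rose are few, and the shares were not tested. Stretches of 60 bases around the match are shown for them, 5′ to 3′ on the gene's strand with the matched letters in capitals, because these are the called rises whose promoter carries the motif.
Casp4: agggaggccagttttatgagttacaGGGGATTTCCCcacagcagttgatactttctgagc
Ces2c: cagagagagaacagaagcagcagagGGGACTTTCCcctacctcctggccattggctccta
Ebi3: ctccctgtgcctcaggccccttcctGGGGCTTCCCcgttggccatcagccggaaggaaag
Tnip1: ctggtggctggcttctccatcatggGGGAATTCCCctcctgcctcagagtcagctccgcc
The stretches lie at chr9:5308731-5308790 on the plus strand, chr8:104846902-104846961 (plus), chr17:55952554-55952613 (plus) and chr11:54962963-54963022 (minus), and the first matched base is 93 or 104 bases upstream of the start site for Casp4, depending on which of its annotated starts is used. For Ces2c, Ebi3 and Tnip1 the match begins 141, 44 and 57 bases upstream. The genes with a match that fell were Aqp8, Fcgr4 and Il4ra. A match is a run of letters and does not show that a factor binds there.

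Tyrobp (DAP12), an adaptor that carries signals from activating receptors of myeloid cells, fell by 2.07 ± 0.45 (adjusted p = 0.0362). Tyrobp read 4.55, 5.00, 5.26 and 5.45 with VOID and 2.98, 3.52, 3.74 and 1.75 with the fragment. Of all tested genes 0.4% fell. Pira2 and Pira7, paired receptors outside the list used here, fell by 2.32 and 1.78 (adjusted p = 0.0197 and 0.0144). Neither passed without replicate 4 and with no block (0.0861 and 0.0621), and Pira7 was picked out after its values were seen. The list of paired inhibitory and activating receptors takes in the adaptor Tyrobp, and of its 22 tested genes 3 fell, Tyrobp, Lilra6 and Fcgr4. None of its genes passed without replicate 4 and with no block, where the list's median was -0.01. Without that array the adjusted p was 0.138 for Tyrobp, 0.0967 for Lilra6 (a fall of 1.67 with all arrays) and 0.107 for Fcgr4 (a fall of 1.56). Tyrobp also missed the threshold without p363-549 replicate 1 (adjusted p = 0.0791) or VOID replicate 2 (0.0948), 3 (0.0938) or 4 (0.135). Lilra6 did so without p363-549 replicate 3 (0.0712) or VOID replicate 2 (0.0665), 3 (0.0507) or 4 (0.108), and Fcgr4 without p363-549 replicate 2 (0.0561) or VOID replicate 2 (0.0924), 3 (0.0833) or 4 (0.0916). With the block of title number sets and without replicate 4, Tyrobp and Lilra6 passed (adjusted p = 0.0374 and 0.0110) and Fcgr4 did not (0.0617).

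Several called genes were neighbours. Of the 87 called genes 26 had another within 500 kb (29.9%), and 1076 of 14867 placed genes (7.24%) had a called gene within that distance, a difference that was not tested. The groups were the CD200 receptor cluster, Pira2, Pira7, Gm10693 and Lilra6 on chromosome 7, Serpinb9e, Serpinb9f and Serpinb9g on chromosome 13, C5ar1, C5ar2 and Ehd2, and the pairs Lyz1 and Lyz2, Ccl3 and Ccl5, Ces2b and Ces2c, Fes and Furin, Tyrobp and Ffar2, and Il27ra and Podnl1. The last pair moved in opposite directions, and the members of every other group shared theirs. The serpins, inhibitors of granule proteases, were picked out after their values were seen, and Serpinb9f and Serpinb9g fell by 1.61 and 1.51. Neighbours of the same family can share probe sequence, which was not tested.

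Other gene groups did not pass, where 0.58% of all tested genes were called. Of 40 lists, 21 had 0 calls in limma, among them the 42 tested BCR-ABL, STAT5 and ERK response genes (median -0.00, changes from -0.79 to 0.44), the 14 Bcl2 family genes (median 0.02) and the 14 MHC class I presentation genes (median 0.22). Of the 28 tested interferon-stimulated genes none was called with all arrays, and Zbp1 alone, a sensor of nucleic acids, fell without replicate 4, by 1.07 (adjusted p = 0.0243). The erythroid and globin list had 1 call in 20, Hbb-y, an embryonic globin, which fell by 2.54 ± 0.45 (adjusted p = 0.00637) and by 1.96 without replicate 4. The adult globins Hbb-bt and Hbb-b2 were 0.97 and 1.71 lower with all arrays and did not pass, and without replicate 4, far below the other 3 arrays in both, Hbb-bt was 0.17 higher and Hbb-b2 0.54 lower. Globin genes are near-identical, so their probes may not separate them.

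**Figure D5:**
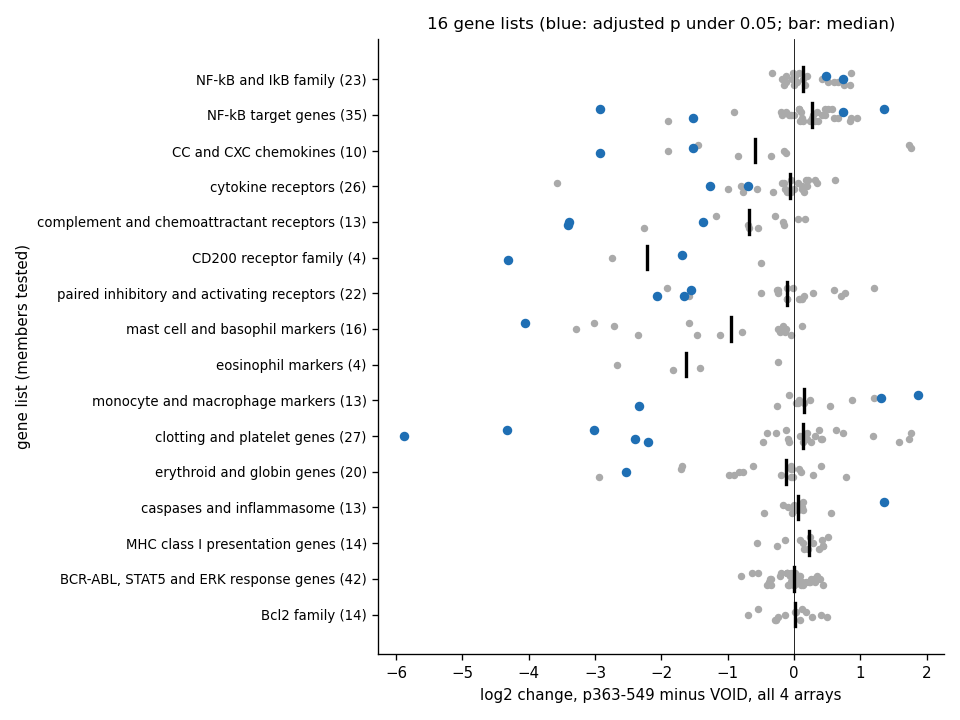
Change (log2, p363-549 minus VOID, all 4 arrays) of each tested member of 16 gene lists, with the number tested in parentheses, called members in blue and the list median as a black bar. Most medians lie near 0, and the CD200 receptor, eosinophil, mast cell, complement receptor and chemokine lists have medians between -2.22 and -0.59.

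Leaving out replicate 4 brought up 14 further genes. Gpr132, a proton-sensing receptor of leukocytes, read -2.81, -2.90, -2.81 and -2.73 in VOID and -4.66, -5.18 and -5.18 on the other 3 fragment arrays, whereas replicate 4 read -2.68. Replicate 4 was thus at the VOID level, and Gpr132 fell by 2.20 without it (adjusted p = 0.000152) against 1.61 with it (adjusted p = 0.0812). Bfsp2, a lens filament protein, had the same form: 0.57, 0.43, 0.17 and 0.34 in VOID, -1.08, -1.14 and -1.51 on the 3 arrays and 0.48 on replicate 4, a fall of 1.62 without it (adjusted p = 0.000145). Isl2, Tesc, Slc4a5 and C1s2 also fell without it, and since none was above background on the other 3 arrays they were at least 1.71-fold, 1.38-fold, 2.71-fold and 1.02-fold lower. Among the gained rises was Nrcam, a neuronal adhesion molecule above background on 0 VOID arrays, which was at least 2.79-fold higher (adjusted p = 0.0338). Rad9a, a DNA damage checkpoint protein, rose by 0.82 (adjusted p = 0.0243), and 9630013D21Rik, 1110038B12Rik, Lrrc75a and Jmjd7 rose by 0.96, 0.78, 0.63 and 0.57. Of the 69 genes called without replicate 4, that array lay on the same side of the VOID mean for 62, with a median change of 0.89 against 1.15 among the 21 rises and -2.23 against -1.95 among the 48 falls.

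The fragment was set against the other constructs in the same fit. Against WT, 19 genes differed (0.127%), 5 higher and 14 lower in p363-549, and 42 (0.28%) did without replicate 4. The adult globin Hbb-bt was 4.32 ± 0.72 higher than in WT (adjusted p = 0.00816) and Hbb-b2 4.20 higher (adjusted p = 0.0120). The levels of Hbb-bt show the form of this difference: -0.94, -0.42, -0.24 and -0.84 in WT, 4.46, 4.97, 5.15 and 0.28 in p363-549, and 4.03, 4.62, 5.30 and 4.80 in VOID. The other 3 fragment arrays were thus at the VOID level. Replicate 4 lay between the WT arrays and those with both fragments, which read 0.76, 0.50, 0.91 and 1.34. Without replicate 4 Hbb-bt was 5.47 above WT (adjusted p = 3.5e-07) and Hbb-b2 5.37 above it. Hbb-y was 2.45 higher and B3gnt5, a glycolipid-building enzyme, 2.20 higher (adjusted p = 0.0198 and 0.00816), each above background on 2 WT arrays, and 3.02 and 1.88 higher without replicate 4. Itih3 was above background on all 4 WT arrays, at -0.39, -0.49, -0.35 and -0.05, and was at least 21.6-fold lower with p363-549 (adjusted p = 7.5e-08, measured means -0.32 and -6.53), or 20.3-fold without replicate 4. The cytokine Il13 was at least 8.02-fold lower (adjusted p = 0.00428, measured means -1.75 and -6.35), or 7.54-fold without replicate 4. Map3k19, a protein kinase, was at least 2.04-fold lower than in WT (adjusted p = 4.2e-07) and above background on 0 arrays of either p363-549 or VOID. Cd200r2 was 1.72 lower than in WT (adjusted p = 0.00167) and 1.44 lower without replicate 4 (adjusted p = 0.00179), so its fall was deeper with the fragment than with full-length p65.

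Against p1-361, 0 genes passed in limma with all arrays (0%; 284 at an unadjusted p under 0.05) and 0 without replicate 4 (0%; 514 at an unadjusted p under 0.05). Without the 3 arrays that resembled another group, which were picked by their values, 70 did. Cd200r2, Ccdc80 and Casp4 changed against VOID by -4.31, -2.88 and 1.35 with p363-549 and by -3.55, -2.43 and 1.19 with p1-361, and both comparisons share the VOID arrays. For Fam20a the changes were 2.58 and 1.54, and the difference between the fragments was 1.42 without replicate 4 (adjusted p = 0.257). Fam20a was 1.76 higher than in WT in that fit (adjusted p = 0.0142), against 1.39 with all arrays (adjusted p = 0.265).

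Against both fragments together the outcome rested on 1 array. With all arrays 0 genes passed in limma (0%), although 2762 had an unadjusted p under 0.05, and without p363-549 replicate 4 there were 1691 (11.3%), 1063 higher and 628 lower in p363-549. Without that array F13a1 was 4.24 higher with p363-549 alone (adjusted p = 0.00201). Fcer1a and Vwf were above background on 0 arrays with both fragments, and with p363-549 alone they were at least 3.40-fold (adjusted p = 0.000391) and 1.14-fold higher (adjusted p = 0.00070). The falls of these 3 genes were thus smaller with p363-549 alone only when that array was left out. Replicate 4 resembled the group with both fragments, so leaving it out favours a difference from that group and cannot show one independently. F13a1 read -6.76 on replicate 4, and -6.20, -6.13, -6.96 and -1.49 on the arrays with both fragments. Cd200r2 and Casp4 did not differ past the test (0.57, adjusted p = 0.0830, and 0.07, adjusted p = 0.828).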

How the data were processed

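Cy3-labelled RNA of 24 samples (6 groups of 4) was read on Agilent arrays, 1 sample per array. Per the file headers and the submitters' processing notes, the authors ran Agilent Feature Extraction 10.7.3.1. Its deposited intensity is linear, with background removed and no scaling from array to array. The values deposited for the whole series were identical to it (largest difference 0). Saturation was met on no spot. Spots marked as uneven or outlying, 185 to 312 of them on an array, were left out.

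Here, log2 of that intensity minus each array's 75th percentile was used. A probe was kept where some group had it well above background on each of its 4 arrays (19523 probes), and the brightest probe stood for a gene, giving 14991 genes. Names came from RefSeq accessions, then symbols, then the files. limma 3.58.1 in R 4.3.3 (with statmod 1.5.0 and data.table, version 1.17.8) fitted 6 group means to 24 arrays (18 residual degrees of freedom). Tests were 2-sided, and errors are limma standard errors. A gene above background on 0 arrays of the dimmer group has only a bound, written as at least N-fold: the brighter mean over the background level. The pipeline was tested on simulated data in which 200 of 14991 genes were given a change. For p363-549 against VOID it recovered 93 genes with a log2 change of 2 and 57 with a log2 change of 1, and 18 calls were false. The number of arrays limits the precision. Figures used Python 3.11.15, pandas 2.3.3 and matplotlib 3.10.9.

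The genes named were Rela, the 14 largest rises and 16 largest falls called with arrays apart and the brighter group above background throughout, every called member of 40 gene lists, the 6 largest gained and lost in each direction without p363-549 replicate 4, and the 4 largest in each direction in each further comparison. The comparison, lists and rule were chosen with earlier results of these data known. Replicate numbers follow the sample order and match the sets of title numbers. The main fit did not pair samples, and the fits with those sets as a block did. Alternatives were background correction, normalization, filters, the series table, slides or sets of title numbers as blocks, fewer arrays, the mean of a gene's probes, and each array left out. After the data were examined, blocks combined with leaving out replicate 4 were added.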

Additional observations from a re-analysis of the deposited data

Results flagged for a closer look

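Among the genes named, 136 sets of 4 arrays (68 genes in the p363-549 and VOID groups) were examined for 1 array far from the other 3, and 10 were found. Chance gives about 1 in 20. Of the 10, 7 were p363-549 replicate 4, but 24 of the 68 genes were chosen for calls gained or lost without that array, so this share is partly set by the choice of genes. On that array F13a1 read -6.76 (others -1.17 to -0.70), Ccl5 -3.17 (others -1.81 to -1.64), Tdrd9 -4.71 (others -2.46 to -2.02), Hbb-b2 -1.17 (others 3.23 to 3.70), Hbb-bt 0.28 (others 4.46 to 5.15), Podnl1 0.32 (others -2.24 to -1.81) and A030001D16Rik 0.59 (others -0.82 to -0.61). On VOID arrays, Fcgr4 read -3.19 on replicate 1 (others -2.35 to -2.19), and on replicate 3 Slc44a3 read -3.85 (others -3.53 to -3.46) and Slc4a5 -4.01 (others -2.96 to -2.82).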

How the results depend on the processing

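The 87 calls against VOID became 12 after normexp correction, 29 with probes above background on all 24 arrays, 21 with only these 8 arrays, 43 with only these arrays and without p363-549 replicate 4, 264 with the sets of title numbers as a block, 280 with that block and without replicate 4, and 34 with slides as a fixed block and without replicate 4. Leaving out 1 array gave 47 to 75. Quantile normalization, the percentile over detected probes, no filter, the series table, slides as a fixed or random block, the mean of a gene's probes, and leaving out the 3 arrays that resembled another group each kept the count within 1.5 times. Against WT the 19 calls became 9 (normexp), 42 (without p363-549 replicate 4) and 102 (without the 3 arrays). Against p1-361 the 0 became 70 without the 3 arrays, and against both fragments the 0 became 2273 without the 3 arrays and 1691 without p363-549 replicate 4. No named call reversed. Why these counts moved was not tested. The labels give no replicate numbers, and the main fit was not paired. The fit with the sets of title numbers as a block (above) does pair the arrays, by the order of their titles. In sets 1 to 3 the VOID and p363-549 arrays of a set correlated at 0.9883, 0.9901 and 0.9914 across genes, in set 4 at 0.9759. Signal near background limits the dim genes. Only those above background on 0 arrays of the dimmer group are given as bounds. Vwf, Tfpi, Cracd and 9330199F22Rik were above background on 1 fragment array each, and Podnl1 on 2 VOID arrays. With all arrays their changes are point values that include signal near background.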
